A study of Homo sapiens with 45 samples.

Results

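The BCL2 family decides at the mitochondrial outer membrane whether a cell starts apoptosis. The RNA of 10 of its members was followed here through cell-cycle arrest in neuroblastoma cells: the survival genes BCL2, BCL2L1, BCL2L2 and MCL1, and the BH3-only genes BCL2L11, BID, BIK, BMF, PMAIP1 and BAD. The 10 were taken by symbol from the 29159 genes counted, all 10 were found, and 9 passed the filter on low counts in every line, BIK being the exception. RNA-seq was carried out on 3 established adrenergic neuroblastoma lines, either without drug (control, called untreated below) or given 1 μM palbociclib (PB), which blocks the cell-cycle kinases CDK4 and CDK6. Lists of 3 values below start with SK-N-BE(2)C, have IMR-32 in the middle and end with SH-SY5Y. PB was given for 24 h or for a longer time, which was 7 days for SK-N-BE(2)C and 5 days for the others, with 5 biological replicates in each of the 9 groups. The labels name no other agent. Per the study's methods PB was dissolved in DMSO, and whether these controls received DMSO is not stated. MYCN is amplified in all but SH-SY5Y. Each line stands for 1 tumour, controls were harvested alongside the 24 h samples, and so the longer treatment also differs from control in time in culture.

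Survival members of the family hold the pore formers BAX and BAK1 in check. BH3-only members carry 1 short helix, the BH3 domain, with which they occupy the groove of survival members or switch on the pore formers directly, and each of them pairs with its own choice of partners. NOXA, the product of PMAIP1, binds chiefly MCL1, BAD binds BCL2, BCL-XL (BCL2L1) and BCL-W (BCL2L2), and BIM (BCL2L11) and BID bind all of the survival proteins. Much of this control acts on protein stability, phosphorylation and cleavage, which RNA counts do not show, and counts per gene do not tell splice forms such as long and short BCL2L1 or MCL1 apart.

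The 45 libraries held 13459219 to 25441812 counts. All 14 genes of a list of S phase and mitosis genes, among them MKI67, RRM2 and AURKB, fell at 24 h in every line. At the longer time 14, 12 and 14 of them were still below control, and against 24 h 1, 14 and 9 were called higher and 1, 0 and 0 lower. The rise in SK-N-BE(2)C, AURKB (0.99, adjusted p = 0.047), ended in several other fits, among them the one without 7 day replicate 1 (0.55, adjusted p = 0.18). Of 9 adrenergic marker genes 9, 9 and 8 were at 1 CPM (counts scaled to library size) or more on average in the 3 lines, and the 4 blood cell markers together never exceeded 0.514 CPM. At 24 h the summed adrenergic markers lay above controls without overlap in every line (5790 to 7190 CPM, then 7680 to 8650 CPM in SK-N-BE(2)C, 3510 to 5070 CPM, then 5970 to 7150 CPM in IMR-32, and 3580 to 4850 CPM, then 5360 to 7130 CPM in SH-SY5Y). At the longer time these sums overlapped the controls in every line (4520 to 5800, 5060 to 5910 and 3590 to 5250 CPM). Of the 9 markers 1, 5 and 2 were called higher at 24 h. At the longer time 0, 1 and 1 were called higher and 2, 1 and 1 lower. The 7 mesenchymal markers in the files summed to 336 to 680 CPM in SH-SY5Y and 135 to 370 CPM in the others, and at 5 days the sums lay below controls without overlap in SH-SY5Y (638 to 680 CPM in controls, 435 to 550 CPM at 24 h, 336 to 365 CPM at 5 days) and in IMR-32 (227 to 308 CPM, then 135 to 183 CPM). The sums of SK-N-BE(2)C overlapped (209 to 220 CPM in controls, 207 to 370 CPM at 7 days), and the median log2 change of the markers tested at the longer time was -1.44, -2.23 and -1.13. The 3 Schwann cell markers in the files were low. Their sum lay above controls at both times in SK-N-BE(2)C (5.33 to 8.71 CPM in controls, 9.74 to 14.4 CPM at 24 h, 10.4 to 14.2 CPM at 7 days). In IMR-32 it did so at 5 days (1.22 to 3.48 CPM, then 5.38 to 9.16 CPM), and in SH-SY5Y the sums overlapped. The part of these markers in the results was not tested. In IMR-32, replicate 5 stood apart in all 3 conditions, with a chi-square per degree of freedom of 56.8 to 85.9, 55.3 to 86.9 and 22.3 to 48.6 against the other replicates, which among themselves had 4.16 to 12.4, 3.93 to 44.7 and 4.61 to 17.7. BCL2 was among the genes that set it apart, and values that turn on this replicate are given with and without it. At 24 h IMR-32 replicate 2 stood apart as well, with 40.4 to 44.7 against replicates 1, 3 and 4, which had 3.93 to 9.51 among themselves. In SK-N-BE(2)C at control and 24 h, replicates 3, 4 and 5 lay closer to each other (chi-square per degree of freedom of their counts 1.69 to 3.18) than other pairs did (7.05 to 23.6), so calls were repeated with these 3 summed as 1 sample. The same 3 were summed at 7 days, where replicate 3 was not close to the others (28.8 and 29.5 against replicates 4 and 5). Replicates 4 and 5 had 5.6 between them there, and the remaining pairs 19.3 to 77.8.

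Within the survival group of the untreated lines, MCL1 was the most abundant RNA per length and BCL2 the least. In RPKM (CPM divided by exon length in kilobases), which allows genes to be compared, control levels of MCL1 were 49.4 ± 1.6, 51.9 ± 2.8 and 47.5 ± 2.1 (SD, n = 5 each, here and for all control levels below). BCL2L1 followed with 11.8 ± 0.70, 21.2 ± 3.8 and 11.3 ± 0.71 RPKM, then BCL2L2 with 6.84 ± 0.46, 5.64 ± 0.30 and 5.93 ± 0.24 RPKM. BCL2 came last, at 4.28 ± 0.91, 1.13 ± 1.0 and 2.49 ± 0.17 RPKM. The IMR-32 value turned on replicate 5, at 2.98 RPKM, the other 4 controls holding 0.55 to 0.784 RPKM. No libraries of neighbouring genes in this order overlapped within a line. The order was the same with the length of the longest transcript, though BCL2 (5.03 to 8.5 CPM per kilobase) and BCL2L2 (8.47 to 10.1) then overlapped in SK-N-BE(2)C. MCL1 thus made up 68.3% ± 1.6, 64.9% ± 3.6 and 70.6% ± 0.99 of the summed survival RNA.

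With exon lengths as above, BH3-only genes had a different order in each line. The order in SK-N-BE(2)C was BID (19.4 ± 0.83 RPKM), BAD (12.4 ± 0.66), PMAIP1 (10 ± 0.67), BCL2L11 (3.11 ± 0.20) and BMF (1.08 ± 0.23). IMR-32 had PMAIP1 at the top (24.9 ± 3.4 RPKM), with libraries at 20.8 to 29.4 RPKM that overlapped those of BAD (19.9 ± 2.5 RPKM, 16.2 to 22.4), which in turn overlapped those of BID (16.9 ± 0.78 RPKM). BCL2L11 (2.83 ± 0.23 RPKM) and BMF (1.6 ± 0.26 RPKM) were low there too. SH-SY5Y held most BAD (28.6 ± 1.4 RPKM), then PMAIP1 (12.6 ± 1.0), BID (9.34 ± 0.49), BCL2L11 (6.81 ± 0.80) and BMF (3.04 ± 0.57). Divided by the longest transcript in place of all exons, IMR-32 held 29.9 ± 1.4 CPM per kilobase of BID, 29.4 ± 3.6 of BAD and 28.7 ± 4.0 of PMAIP1, with overlap, and SH-SY5Y held more BID (16.5 ± 0.86) than PMAIP1 (14.6 ± 1.2), so these orders rest on the length used. BIK was close to absent in all lines.

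Between untreated lines 4 of 9 members differed for SK-N-BE(2)C against IMR-32, 4 of 9 for SK-N-BE(2)C against SH-SY5Y and 7 of 9 for IMR-32 against SH-SY5Y. A gene was called here and below at an adjusted p under 0.05 (edgeR's quasi-likelihood test, Benjamini-Hochberg adjustment over all genes tested) and a log2 change over 0.5 in size. Of all 16282 genes in this fit 62.1%, 57.5% and 54.2% were called, so the members' share lay under that of all genes in the first 2 pairs and above it in the last. BCL2L1 was higher in IMR-32 than in either other line, by 0.85 ± 0.097 and 0.91 ± 0.096 on the log2 scale (estimate ± SE). PMAIP1 was likewise higher in IMR-32, by 1.31 ± 0.12 and 0.98 ± 0.12. BID was lower in SH-SY5Y than in both other lines (log2 differences 1.05 ± 0.077 and 0.86 ± 0.077), while BCL2L11 was higher there (log2 differences of -1.13 ± 0.10 and -1.26 ± 0.10 when SH-SY5Y is subtracted). MCL1 and BCL2L2 were called in no pair. BCL2 was lower in IMR-32 than in SK-N-BE(2)C (log2 difference 1.94 ± 0.48), a gap of 2.70 ± 0.20 without the 3 libraries of IMR-32 replicate 5, and lower than in SH-SY5Y (-1.16 ± 0.47, and -1.91 ± 0.19 without them). The latter call ended when any 1 of replicates 1 to 4 was left out of all groups (adjusted p = 0.088 to 0.12) and without the filter on low counts (adjusted p = 0.053). BAD was lower in SK-N-BE(2)C than in IMR-32 (-0.69 ± 0.11) and SH-SY5Y (-1.21 ± 0.11), and lower in IMR-32 than in SH-SY5Y (-0.52 ± 0.11), where the call ended without the IMR-32 libraries of replicate 5 (-0.46). BMF was highest in SH-SY5Y, with IMR-32 lower by a log2 difference of -0.92 ± 0.30 and SK-N-BE(2)C by one of -1.49 ± 0.31. The gap of BCL2 between SK-N-BE(2)C and SH-SY5Y, 0.78 ± 0.45, was called only without replicate 5 of IMR-32 (0.79 ± 0.16, adjusted p = 4.4e-05).

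**Figure D1:**
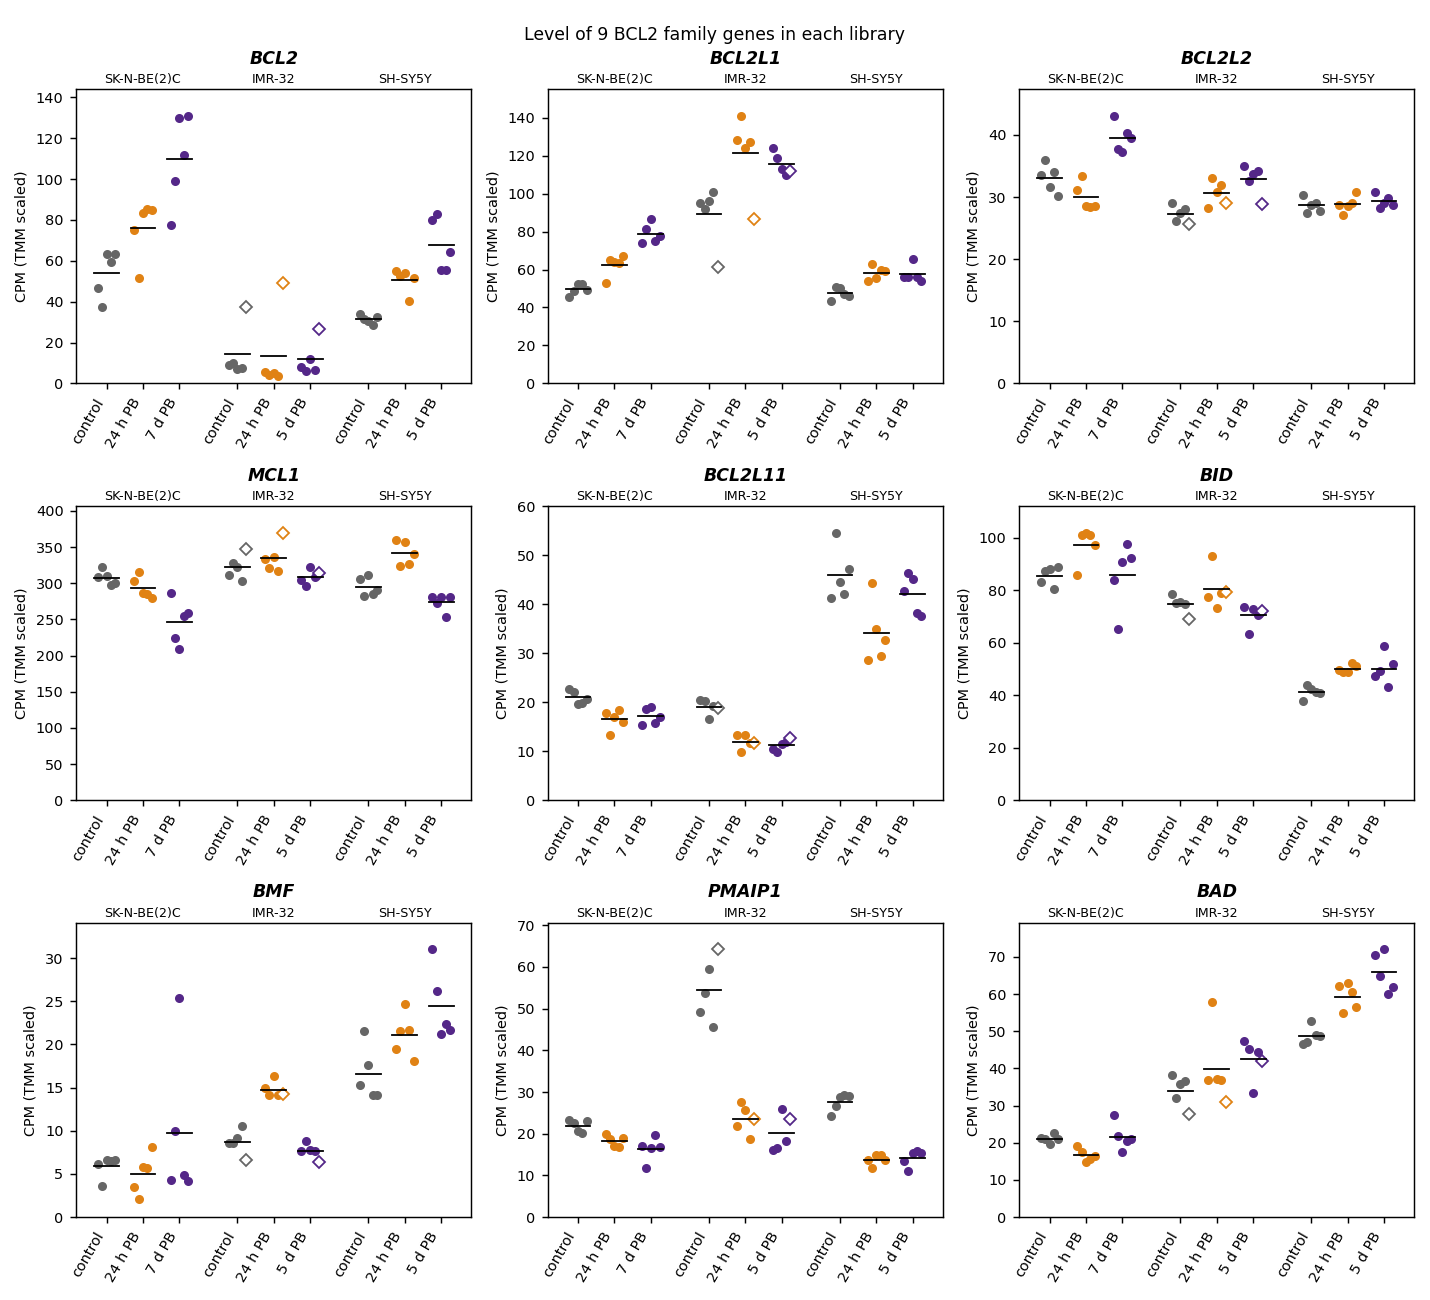
Level of the 9 tested members in each of the 45 libraries (y axis, CPM after TMM scaling, from 0; x axis, line and condition; 1 point a library, bars the mean of 5; open diamonds, IMR-32 replicate 5). BCL2 rises with time in SK-N-BE(2)C and SH-SY5Y, PMAIP1 falls in IMR-32 and SH-SY5Y from 54.5 and 27.6 CPM on average to 23.6 and 13.8 CPM at 24 h, and 1 IMR-32 replicate holds far more BCL2 than the other 4.

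BCL2, the founding survival gene (chr18:60790579-60987361, minus strand, GRCh37), had the largest called rises among the 9 members tested, in SK-N-BE(2)C and SH-SY5Y at the longer time. The SK-N-BE(2)C controls held 46.8, 37.5, 63.4, 59.4 and 63.2 CPM (replicates 1 to 5, as in all lists below), the 24 h libraries 74.9, 51.4, 83.2, 85.3 and 84.8 CPM, and the 7 day libraries 77.7, 99, 130, 112 and 131 CPM. Every 7 day library lay above every control, whereas replicate 2 at 24 h lay within the control range. The rise at 7 days was 1.04 ± 0.18 on the log2 scale (2.05-fold, adjusted p = 9.4e-05). At 24 h the difference was 0.49 ± 0.18 (adjusted p = 0.035), just under the size limit, and it passed the limit when control replicate 3, 4 or 5 or 24 h replicate 2 was left out (0.53 to 0.60). From 24 h to 7 days BCL2 rose by a further 0.55 ± 0.18 (adjusted p = 0.015), a call that ended at 0.43 to 0.48 when 24 h replicate 2 or 7 day replicate 3 or 5 was left out. It also ended with replicates 3 to 5 summed (0.52 ± 0.24, adjusted p = 0.11) and without the filter on low counts (0.51, adjusted p = 0.052).

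In SH-SY5Y the same gene rose at both times. Controls held 34.2, 31.7, 30.3, 28.5 and 32.4 CPM, the 24 h libraries 54.8, 52.7, 54.2, 40.3 and 51.4 CPM, and the 5 day libraries 80, 83.1, 55.4, 55.7 and 64.1 CPM. All 10 treated libraries lay above all controls, and the 5 day libraries lay above the 24 h ones. The log2 changes were 0.66 ± 0.11 at 24 h (1.58-fold, adjusted p = 0.00012) and 1.09 ± 0.11 at 5 days (2.12-fold, adjusted p = 2.3e-07), with 0.43 ± 0.11 between the treated times, under the size limit.

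IMR-32 gave another picture, in which 1 replicate decided the value. Controls held 9.22, 9.89, 6.94, 7.46 and 37.6 CPM of BCL2, the 24 h libraries 5.45, 4.15, 4.87, 3.6 and 48.9 CPM, and the 5 day libraries 8.26, 5.87, 12, 6.77 and 26.7 CPM. Replicate 5 was the high one in each condition, by 2.05, 3.19 and 1.63 on the log2 scale above the mean of the other 4. A gap as large between this replicate and the others was seen in 1.27%, 0.203% and 0.77% of the 14293 genes tested, so few genes set this replicate apart as much. With all libraries the changes were -0.09 ± 0.77 and -0.22 ± 0.77, and neither passed the test. Without replicate 5 in any condition BCL2 fell at 24 h by 0.88 ± 0.21 on the log2 scale (adjusted p = 0.0027), every one of the 4 remaining 24 h libraries lying below every remaining control, and stood at 0.02 ± 0.20 at 5 days. Leaving out only the 24 h library of that replicate gave -1.65 ± 0.58 at 24 h (adjusted p = 0.038), and leaving out only its control library gave 0.68 ± 0.77. With the replicate number as a block the value was -0.53 ± 0.28, which did not pass.

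**Figure D2:**
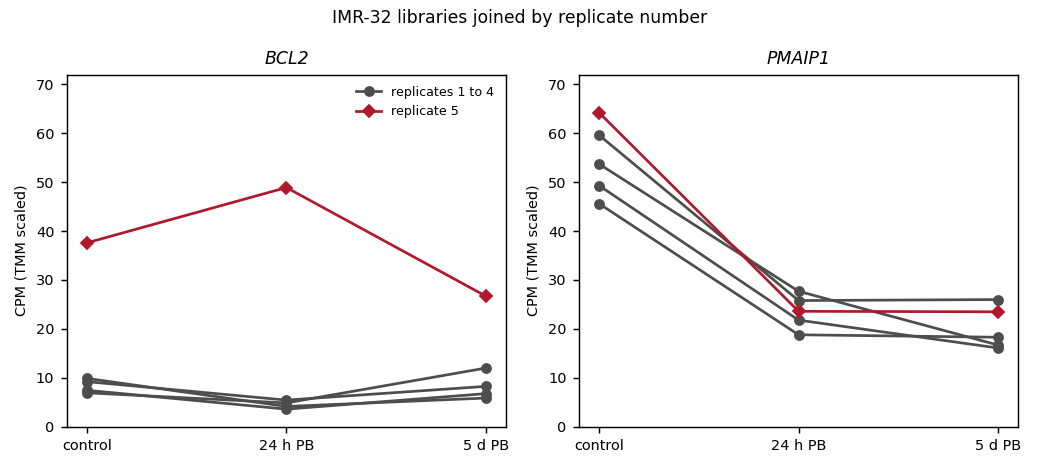
BCL2 and PMAIP1 in IMR-32, in CPM after TMM scaling (y axis), at control, 24 h and 5 days of PB (x axis), with lines joining libraries of 1 replicate number. Replicate 5 (red diamonds) is at 26.7 to 48.9 CPM for BCL2 against 3.6 to 12 CPM in the other 12 libraries, while for PMAIP1 it moves with the rest.

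BCL2L1, which encodes BCL-XL (chr20:30252255-30311792, minus strand), was higher under PB in each line, though past the size limit in only 1 comparison against control. SK-N-BE(2)C controls held 45.5, 48.5, 52.5, 52.3 and 49.3 CPM, the 24 h libraries 53.1, 64.8, 64.2, 63.3 and 67.1 CPM and the 7 day libraries 73.7, 81.5, 86.6, 74.8 and 77.9 CPM. The 3 groups did not overlap, and the rise at 7 days was 0.68 ± 0.069 on the log2 scale (1.6-fold, adjusted p = 1.9e-07) after 0.33 ± 0.069 at 24 h. In IMR-32 the changes were 0.45 ± 0.13 and 0.41 ± 0.13 (adjusted p = 0.014 for both), and in SH-SY5Y 0.27 ± 0.065 and 0.26 ± 0.065 (adjusted p = 0.0022 and 0.0019), all below the limit of 0.5. IMR-32 replicate 5 was the lowest library at control (61.4 against 92 to 101 CPM) and at 24 h (86.5 against 124 to 141 CPM), and without its 24 h library the 24 h change was called (0.54, adjusted p = 0.0014). Of the exon bases of BCL2L1 1735 lie opposite ABALON on the other strand, and the counted strand is not known here.

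MCL1, the short-lived survival gene (chr1:150533371-150552214, minus strand), moved little. In its SK-N-BE(2)C libraries it stood at 307 CPM on average in controls, 294 CPM at 24 h and 247 CPM at 7 days, where every library (209 to 287 CPM) lay below every control (297 to 322 CPM). The 7 day difference of -0.31 ± 0.070 had an adjusted p of 9e-04 but stayed under the size limit. IMR-32 levels differed by 0.06 ± 0.063 and -0.02 ± 0.063. SH-SY5Y went from 295 CPM up to 342 CPM at 24 h (0.18 ± 0.053) and down to 274 CPM at 5 days (-0.13 ± 0.053), so that its 5 day libraries (253 to 281 CPM) lay below both the controls (283 to 312 CPM) and the 24 h libraries (324 to 360 CPM). BCL2L2, which encodes BCL-W (chr14:23767999-23780960, plus strand), was called nowhere. Its changes at the longer time were 0.27 ± 0.066, 0.31 ± 0.075 and 0.01 ± 0.056. BCL2L2 shares 815 exon bases with the read-through gene BCL2L2-PABPN1, so its reads may be split between the 2 names.

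PMAIP1 (chr18:57567228-57571537, plus strand) had the largest called falls among the 9 members tested, in IMR-32 and SH-SY5Y. It encodes NOXA, a BH3-only protein induced by stress that binds MCL1 and hastens its degradation. In IMR-32 controls held 49.3, 53.7, 59.6, 45.6 and 64.2 CPM, the 24 h libraries 21.8, 27.7, 25.8, 18.8 and 23.6 CPM, and the 5 day libraries 16.1, 16.7, 26, 18.3 and 23.5 CPM. Treated and control libraries were far apart, with log2 changes of -1.20 ± 0.15 at 24 h (adjusted p = 1.3e-05) and -1.40 ± 0.15 at 5 days (adjusted p = 3.4e-06). SH-SY5Y controls held 24.2, 26.7, 28.8, 29.4 and 29.1 CPM, the 24 h libraries 13.6, 11.9, 14.9, 14.8 and 13.7 CPM, and the 5 day libraries 13.4, 11.1, 15.5, 15.9 and 15.5 CPM. Again no treated library reached a control, and the changes were -1.03 ± 0.098 and -0.97 ± 0.098 (adjusted p = 1.2e-07 for both). SK-N-BE(2)C showed a smaller difference: 23.3, 22.6, 20.6, 20.2 and 23.1 CPM in controls, 20, 18.8, 17, 16.8 and 19 CPM at 24 h, and 17.1, 11.8, 16.5, 19.7 and 16.9 CPM at 7 days. Both treated groups lay below the controls, by 0.26 ± 0.11 (adjusted p = 0.054) and 0.41 ± 0.11 (adjusted p = 0.0026) on the log2 scale, and neither was called with all libraries. The 7 day fall passed the size limit without replicate 4 of every group (-0.51) and with replicates 3 to 5 summed (-0.52). The difference between 24 h and the longer time passed the test in no line (-0.15, -0.19 and 0.06 on the log2 scale).

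BCL2L11 (chr2:111876955-111926021, plus strand) encodes BIM, which binds every survival protein and is known as a target of FOXO factors. IMR-32 controls held 20.4, 20.3, 16.6, 19.3 and 18.8 CPM, the 24 h libraries 13.3, 9.93, 13.3, 11.7 and 11.7 CPM, and the 5 day libraries 10.4, 9.84, 11.5, 11.8 and 12.8 CPM. No treated library reached the lowest control, and BCL2L11 fell by 0.67 ± 0.10 (adjusted p = 1.3e-04) and 0.73 ± 0.10 (adjusted p = 4.3e-05) on the log2 scale. SK-N-BE(2)C differences were -0.35 ± 0.093 and -0.28 ± 0.093 (adjusted p = 0.0053 and 0.013), with all treated libraries (13.4 to 19.1 CPM) below all controls (19.7 to 22.7 CPM) but under the size limit. SH-SY5Y held more of this RNA and differed by -0.46 ± 0.11 at 24 h (adjusted p = 0.0018), with 1 treated library, replicate 2 at 44.3 CPM, inside the control range of 41.2 to 54.6 CPM. Without that library the 24 h fall was called (-0.59). At 5 days SH-SY5Y was at -0.15 ± 0.11, and its libraries overlapped the controls. Some 727 exon bases of BCL2L11 lie opposite MIR4435-2HG.

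The 250 bases upstream of the RefSeq starts of PMAIP1 and BCL2L11 are shown because these 2 members were both called lower in IMR-32 and varied together over the libraries (below). The bases come from the RefSeq promoter table for GRCh38.p14 and were matched letter for letter to GRCh37 at chr18:57566978-57567227 and chr2:111878241-111878490, plus strand for both, with no annotated UTR inside either window. Capitals mark a FOXO core on the minus strand.
PMAIP1: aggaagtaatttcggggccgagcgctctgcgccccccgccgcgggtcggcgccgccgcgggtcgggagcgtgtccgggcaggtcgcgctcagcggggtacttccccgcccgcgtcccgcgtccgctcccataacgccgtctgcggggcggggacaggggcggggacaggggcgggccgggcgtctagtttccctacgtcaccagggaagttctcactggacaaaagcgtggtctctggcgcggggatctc
BCL2L11: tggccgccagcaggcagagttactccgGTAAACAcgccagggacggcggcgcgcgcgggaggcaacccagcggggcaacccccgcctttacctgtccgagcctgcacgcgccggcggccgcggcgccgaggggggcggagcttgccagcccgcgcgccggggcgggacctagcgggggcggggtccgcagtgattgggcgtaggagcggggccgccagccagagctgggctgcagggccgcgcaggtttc
Both windows are rich in G and C (72.8% and 76.8%). On both strands they were searched for an E2F core (TTCCCGC as written, or its variants TTCGCGC and also TTGCCGC and finally TTGGCGC), for the FOXO core TGTTTAC, for the CRE with letters TGACGTCA and for the E-box with letters CACGTG. Only the FOXO core in BCL2L11 was found, so no matches overlapped. Over 35116 promoters of the same length 10.9%, 2.98%, 1.65% and 6.34% hold these motifs, in this order, and a match describes letters only.

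BMF (chr15:40380091-40401093, minus strand), whose protein is held on the cytoskeleton until stress frees it, was called in IMR-32 at 24 h and in SH-SY5Y at 5 days. With all libraries its response passed no test between lines. The joint fit behind these tests takes 1 spread per gene from all 3 lines, the scattered SK-N-BE(2)C libraries included. In it the 5 day response of IMR-32 minus that of SH-SY5Y was -0.76 ± 0.42 (adjusted p = 0.18), beside SEs of 0.12 within each of these lines. Without replicate 5 of every group the longer response of SK-N-BE(2)C exceeded that of IMR-32 by 1.21 (adjusted p = 0.049). In IMR-32 BMF rose at 24 h, and its log2 change at 5 days was -0.15 ± 0.12 (adjusted p = 0.34): 8.53, 8.58, 9.12, 10.6 and 6.62 CPM in controls, 15, 14.1, 16.3, 14.2 and 14.3 CPM at 24 h, and 7.66, 8.8, 7.72, 7.7 and 6.35 CPM at 5 days. The 24 h libraries stood clear of both other groups, with a rise of 0.77 ± 0.12 against control (adjusted p = 1.7e-04) and a fall of 0.92 ± 0.12 from 24 h to 5 days (adjusted p = 5.2e-05). SH-SY5Y controls held 15.3, 21.5, 17.6, 14.2 and 14.1 CPM, the 24 h libraries 19.5, 21.5, 24.7, 21.7 and 18.1 CPM, and the 5 day libraries 31, 26.2, 21.2, 22.4 and 21.7 CPM. Control replicate 2 overlapped both treated groups, and BMF was called only at 5 days (0.55 ± 0.12, adjusted p = 8.3e-04), a call that ended at 0.45 to 0.50 when control replicate 4 or 5 or 5 day replicate 1 was left out. In SK-N-BE(2)C the 7 day libraries held 4.25, 9.97, 25.4, 4.85 and 4.22 CPM against 3.65 to 6.59 CPM in controls. Replicate 3 set the mean, and the difference of 0.76 ± 0.49 did not pass (adjusted p = 0.17). Replicates 2 and 3, the highest for BMF, also had the highest mesenchymal marker sums at 7 days (370 and 296 CPM), and the part of that in the value was not tested. BMF overlaps BMF-AS1 on the other strand by 461 exon bases.

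BAD (chr11:64037302-64052176, minus strand), whose BH3 domain is masked by phosphorylation under growth factor signals, was called in no line. SH-SY5Y came closest: 46.7, 47.1, 52.7, 48.9 and 48.7 CPM in controls, 62.1, 54.8, 62.9, 60.5 and 56.4 CPM at 24 h, and 70.6, 64.8, 72, 60.1 and 61.9 CPM at 5 days. All treated libraries exceeded all controls, by 0.25 ± 0.060 (adjusted p = 0.002) and 0.41 ± 0.060 (adjusted p = 8.8e-06) on the log2 scale, under the size limit. SK-N-BE(2)C held less at 24 h (-0.33 ± 0.10, adjusted p = 0.014, 14.9 to 19.2 CPM against 19.6 to 22.7 CPM) and was near control at 7 days (0.05 ± 0.10). IMR-32 differed by 0.24 ± 0.15 and 0.36 ± 0.15, neither past the test, with 24 h replicate 2 at 57.8 CPM against 30.9 to 37.2 CPM in the others. BID (chr22:18216904-18257536, minus strand), which caspase 8 cleaves to link death receptors with mitochondria, was called nowhere either. Its differences were 0.19 ± 0.087, 0.11 ± 0.071 and 0.25 ± 0.071 at 24 h, then 0.02 ± 0.087, -0.04 ± 0.071 and 0.26 ± 0.071, with an adjusted p of 0.0069 and 0.0035 in SH-SY5Y.

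BIK (chr22:43506756-43525718, plus strand) did not pass the filter on low counts in any line. The controls of SK-N-BE(2)C held 1, 1, 1, 0 and 0 counts, its 24 h libraries 1, 4, 1, 1 and 4 counts and its 7 day libraries 5, 6, 7, 3 and 6 counts. The 7 day libraries lay above every control at these few counts, and with no filter BIK was called higher at 7 days (adjusted p = 0.0011) but not at 24 h (adjusted p = 0.16). IMR-32 had 0 counts in all 5 controls, which allows up to 0.029 CPM over the group (3 counts, counting error only), and 1 and 2 counts in all at 24 h and 5 days. SH-SY5Y had 11, 10 and 22 counts per group in all, and with no filter BIK was called neither there nor in IMR-32.

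**Figure D3:**
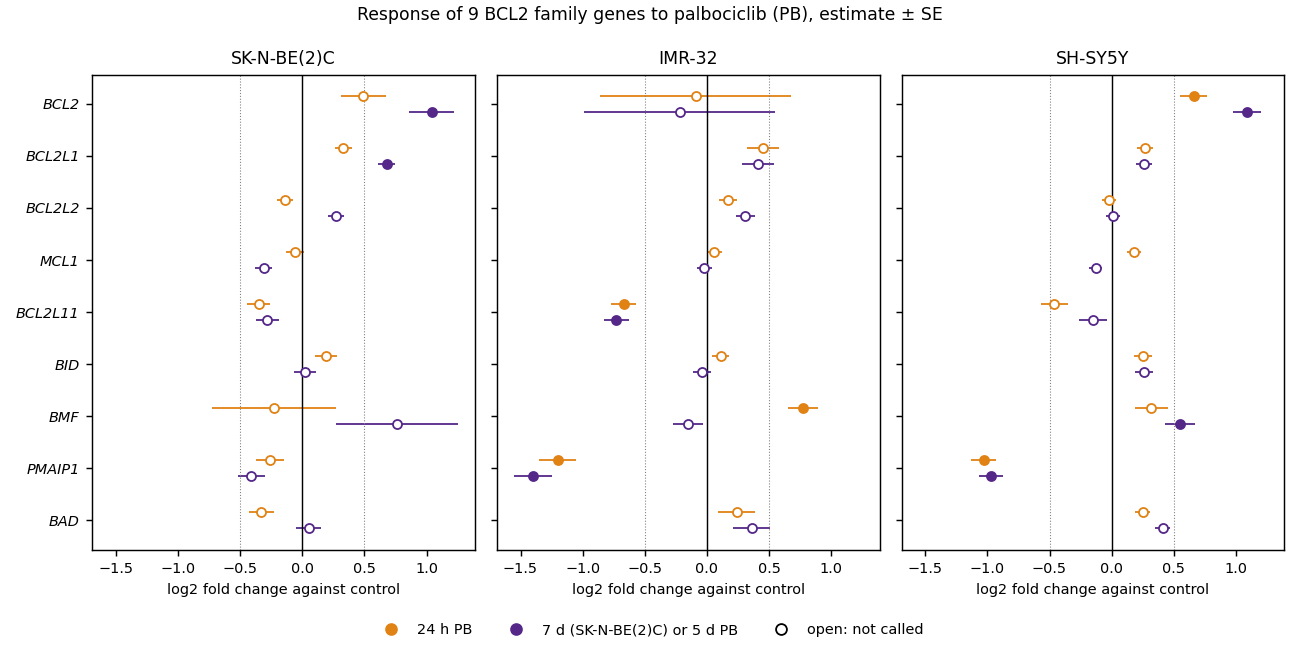
Log2 fold change against control (x axis) of the 9 tested members (y axis) at 24 h (orange) and at 7 or 5 days (purple) of PB in each line. Points are edgeR estimates, bars 1 SE, filled points are called, dotted lines mark 0.5 and -0.5, and BCL2 in IMR-32 has the widest bars (0.77).

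Counted over the 9 tested members, 0, 3 and 2 were called at 24 h, where 21.5%, 18.3% and 21.5% of all genes were. With no limit on size, 4, 4 and 8 members passed the test at 24 h (46.8%, 33.1% and 49.2% of all genes), 6, 4 and 7 at the longer time (71.1%, 51% and 65.4%) and 5, 1 and 4 between the treated times (59.3%, 34.4% and 43.5%). At the longer time 2, 2 and 3 members were called, against 46.8%, 32% and 35.9% of all genes, and between the treated times 1, 1 and 0, against 31.9%, 19.6% and 16.7%. Members without overlap between treated and control libraries numbered 4, 3 and 6 at 24 h (38.8%, 23.6% and 39.1% of all genes) and 6, 3 and 5 at the longer time (53.8%, 39% and 47%), and 2, 1 and 2 between the treated times (40.6%, 23.7% and 24.8%). The median absolute log2 change at the longer time was 0.31, 0.31 and 0.26 for members and 0.49, 0.36 and 0.37 for all genes. The 3 contrasts of a line share libraries, so their counts are not independent of each other. Bulk RNA cannot tell fewer cells with a transcript from less of it per cell.

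Split by role and with all libraries in the fit, the called changes of survival genes against control were all rises. They were BCL2 and BCL2L1 in SK-N-BE(2)C at 7 days and BCL2 in SH-SY5Y at both times, with none in IMR-32. Without replicate 5 in any condition BCL2 was called lower in IMR-32 at 24 h (-0.88), and without its 24 h library alone BCL2 was called lower (-1.65) and BCL2L1 higher (0.54) there. Among BH3-only genes the calls went both ways: PMAIP1 lower in IMR-32 and SH-SY5Y at both times, BCL2L11 lower in IMR-32 at both times, BMF higher in IMR-32 at 24 h and in SH-SY5Y at 5 days, and none in SK-N-BE(2)C.

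The test of whether a response differed between lines was past the threshold for 3 members. PMAIP1 fell less in SK-N-BE(2)C than in IMR-32, by 0.95 ± 0.17 at 24 h (adjusted p = 3.7e-04) and 1.01 ± 0.17 at the longer time (adjusted p = 1.4e-05) on the log2 scale. Against SH-SY5Y the difference was 0.74 ± 0.17 (adjusted p = 0.0095) and 0.53 ± 0.17 (adjusted p = 0.018), a call that ended without replicate 3 of every group at 24 h (adjusted p = 0.051) and without replicate 3 or 4 at the longer time (adjusted p = 0.059 and 0.085). SK-N-BE(2)C and IMR-32 both have amplified MYCN and were compared after equal treatment at 24 h, but not at the longer time. SK-N-BE(2)C and SH-SY5Y differ in MYCN as well, which cannot be told apart from their other differences. The 24 h change of BAD was lower in SK-N-BE(2)C than in IMR-32 (-0.56 ± 0.16, adjusted p = 0.026) and SH-SY5Y (-0.61 ± 0.16, adjusted p = 0.024). Both calls for BAD ended when 1 of several replicate numbers was left out (2, 3 or 4 against IMR-32, and 1, 3 or 4 against SH-SY5Y). BCL2L11 fell more in IMR-32 than in SH-SY5Y at 5 days (-0.64 ± 0.15, adjusted p = 8.1e-04). At 24 h 2, 2 and 0 of 9 members were called for SK-N-BE(2)C against IMR-32, SK-N-BE(2)C against SH-SY5Y and IMR-32 against SH-SY5Y, where 4.49%, 2.04% and 3.07% of all genes were, and at the longer time 1, 1 and 1, where 23.9%, 21.2% and 20.8% were.

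For BCL2 the test between lines turned on IMR-32 replicate 5. With all libraries the response of SK-N-BE(2)C exceeded that of IMR-32 by 0.59 ± 0.66 at 24 h and 1.27 ± 0.66 at the longer time, neither past the test (adjusted p = 0.69 and 0.14). Without that replicate of IMR-32 the differences were 1.38 ± 0.28 and 1.05 ± 0.27 (adjusted p = 9.6e-04 and 0.0019), and with the replicate number as a block in each line 0.97 ± 0.26 and 1.19 ± 0.26 (adjusted p = 0.014 and 6.1e-04). The response of IMR-32 minus that of SH-SY5Y was -0.79 ± 0.67 and -1.34 ± 0.67 (adjusted p = 0.61 and 0.13), then -1.57 ± 0.28 and -1.12 ± 0.27 without the replicate (adjusted p = 2.7e-04 and 0.0011), and -1.16 ± 0.27 and -1.25 ± 0.27 with the block (adjusted p = 0.0048 and 4.6e-04). SK-N-BE(2)C and SH-SY5Y differed by -0.20 ± 0.64 and -0.08 ± 0.63, and without the replicate by -0.19 ± 0.23 and -0.08 ± 0.23, none of these past the test. The joint fit takes 1 spread per gene from all lines, so IMR-32 replicate 5 enters the SE of this pair as well.

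The balance of the group was followed as the log2 ratio of the summed RPKM of the 4 survival genes to that of the 6 BH3-only genes, a description of RNA with no test. SK-N-BE(2)C had 0.61, 0.67, 0.71, 0.68 and 0.59 in controls, a mean of 0.76 ± 0.028 at 24 h (SD, n = 5) and 0.77 ± 0.10 at 7 days, where the range of 0.64 to 0.91 overlapped the controls. IMR-32 went from 0.27 ± 0.040 in controls (0.22 to 0.31) to 0.68 ± 0.18 at 24 h (0.37 to 0.81) and 0.68 ± 0.050 at 5 days (0.64 to 0.76), with no overlap. SH-SY5Y went from 0.15 ± 0.081 to 0.36 ± 0.057 at 24 h (0.28 to 0.43, overlapping the controls) and back to 0.04 ± 0.054 at 5 days, where no library (-0.04 to 0.09) lay above the lowest control (0.09 to 0.29). Directions at the longer time turned with what was summed: the SH-SY5Y change of -0.11 became 0.60 from medians of log2 levels and 0.19 without MCL1, and the SK-N-BE(2)C change of 0.12 became -0.10 with BBC3 and HRK added to the BH3-only sum. The IMR-32 change of 0.41 at 5 days kept its sign but was 0.17 with those 2 genes added and 1.23 from medians. In IMR-32 the BH3-only sum went from 66.2 ± 2.2 to 53.1 ± 1.8 RPKM at 5 days and the survival sum from 79.9 ± 0.92 to 85 ± 1.6 RPKM, while in SH-SY5Y at 5 days the BH3-only sum was higher than in controls (67.4 ± 4.5 against 60.5 ± 2.8 RPKM), BAD being its largest part.

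These sums hide shifts within each side. At the longer time MCL1's share of survival RNA was down to 52.5% ± 4.4, 58.5% ± 1.4 and 63.7% ± 1.1. BCL2's share in SK-N-BE(2)C went from 5.93% ± 1.3 to 11.6% ± 2.5, and from 3.71% ± 0.25 to 7.75% ± 1.4 in SH-SY5Y. In IMR-32 it was 1.42% ± 1.3 in controls (0.68% to 0.971% without replicate 5) and 1.11% ± 0.80 at 5 days (0.56% to 1.1% without it). PMAIP1's share of BH3-only RNA went from 21.8% ± 1.0, 37.6% ± 5.0 and 20.9% ± 1.2 in controls to 19.2% ± 1.4, 19% ± 2.2 and 10.3% ± 0.64 at 24 h. The log2 ratio of MCL1 to PMAIP1, the 2 whose proteins bind each other, accordingly went from 2.30 ± 0.092, 1.07 ± 0.13 and 1.91 ± 0.15 in controls to 2.50 ± 0.098, 2.33 ± 0.22 and 3.13 ± 0.12 at 24 h, with overlap only in SK-N-BE(2)C. That of BCL2 to BCL2L11 went from 0.43 ± 0.41 to 1.76 ± 0.27 at 7 days in SK-N-BE(2)C and from -1.45 ± 0.18 to -0.23 ± 0.25 at 5 days in SH-SY5Y. In IMR-32 it was -1.67 ± 0.99 in controls and -1.05 ± 0.76 at 5 days, with replicate 5 the highest at 0.09 and 0.16.

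**Figure D4:**
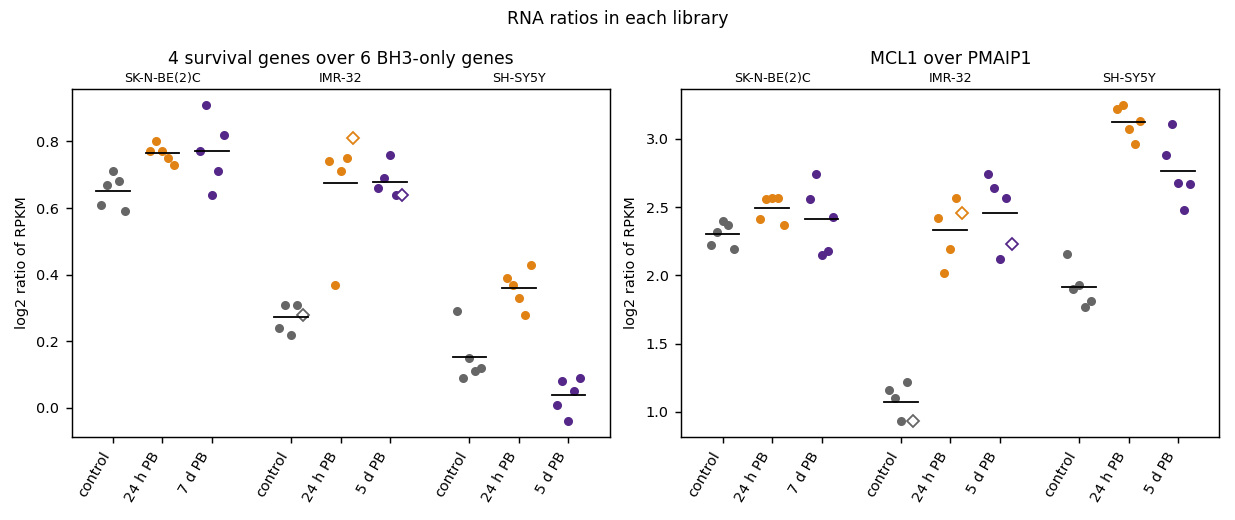
Log2 ratio of RPKM (y axis) for the summed survival over the summed BH3-only genes (left) and for MCL1 over PMAIP1 (right) in each library, by line and condition (x axis; bars, mean of 5; open diamonds, IMR-32 replicate 5). The MCL1 to PMAIP1 ratio is higher under PB in IMR-32 and SH-SY5Y in every library, whereas the summed ratio in SH-SY5Y is higher on average at 24 h, with 1 library (0.28) under the highest control (0.29), and lower at 5 days, a direction that turns from -0.11 to 0.19 when MCL1 is left out and to 0.60 from medians.

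Other genes of the family, 13 listed and 9 tested in each line, included the largest rises. BBC3, which encodes the BH3-only protein PUMA, rose in all lines at both times, by 1.95 ± 0.25, 1.22 ± 0.32 and 0.85 ± 0.11 on the log2 scale at 24 h, then by 2.64 ± 0.25, 1.81 ± 0.32 and 0.79 ± 0.11 at the longer time. No treated library overlapped the controls of its line, though the 24 h call in IMR-32 ended without replicate 2 or 3 of every group (adjusted p = 0.056 and 0.055). Its level in SK-N-BE(2)C went from 2.1 to 5.25 CPM in controls to 17.4 to 27.1 CPM at 7 days. HRK, a BH3-only gene of neurons, was not called at 24 h in any line and rose at the longer time in all 3, by 2.85 ± 0.27, 2.65 ± 0.25 and 1.51 ± 0.32. In IMR-32 it went from 5.54 to 10.2 CPM in controls to 23.5 to 65.7 CPM at 5 days.

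Among the pore formers, BAX was not called against control in any line and BAK1 fell by 0.68 ± 0.082 on the log2 scale at 7 days (SK-N-BE(2)C) and by 1.01 ± 0.12 at 5 days (IMR-32). BOK, their relative, rose in SK-N-BE(2)C by 1.26 ± 0.29 at 24 h and 3.72 ± 0.29 at 7 days, to 29 to 44.7 CPM from 1.45 to 3.89 CPM. It rose in SH-SY5Y by 1.20 ± 0.19 and 2.20 ± 0.19, and in IMR-32 its values were 0.17 ± 0.19 and 0.20 ± 0.19. BCL2L12 fell in SK-N-BE(2)C and SH-SY5Y at both times and in IMR-32 at 5 days, and there the call (-2.36 ± 0.86, adjusted p = 0.032) rested on few counts. It ended without control replicate 5 (-0.84), without any of 5 day replicates 1, 2, 3 and 5 (-2.25 to -2.40) and with no filter (-2.38, adjusted p = 0.071), and DESeq2 gave no adjusted p. BNIP3L, a mitophagy receptor, rose in SK-N-BE(2)C at 7 days (1.18 ± 0.12). BCL2L13 and BNIP3 were not called against control in any line, and BCL2A1, BCL2L10, BCL2L14 and BCL2L15 did not pass the count filter. Of the 9 tested 2, 1 and 2 rose and 1, 0 and 1 fell at 24 h, and 4, 2 and 3 rose and 2, 2 and 1 fell at the longer time. The median log2 changes of the 9 at the longer time were 0.50, -0.10 and 0.20, beside 0.01, 0 and 0.01 for all genes.

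**Figure D5:**
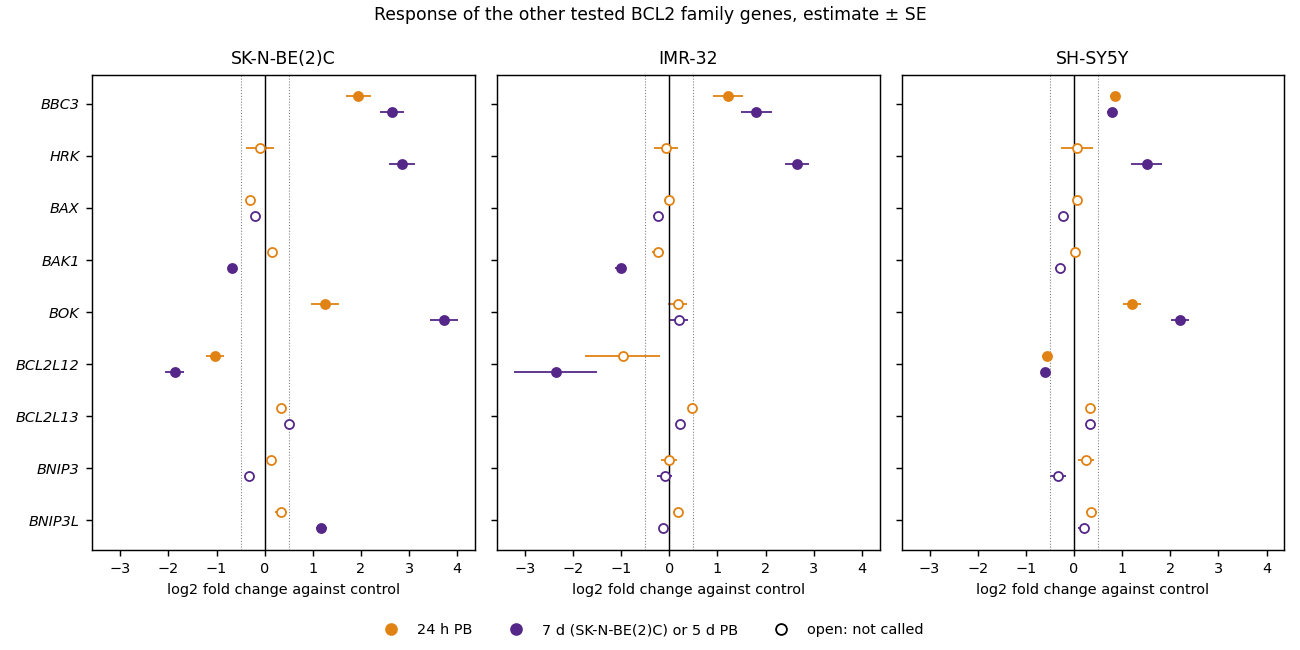
Log2 fold change against control (x axis) of the 9 other family genes tested (y axis), at 24 h (orange) and 7 or 5 days (purple) of PB. Points are estimates, bars 1 SE and filled points calls; HRK moves only at the longer time, by 1.51 to 2.85, and BOK moves in SK-N-BE(2)C and SH-SY5Y.

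Downstream of the family, genes of the apoptosome and caspases had calls in both directions. The shares of all genes called, 46.8%, 32% and 35.9% for the longer time after 21.5%, 18.3% and 21.5% at 24 h, are the background for the counts of these lists and of the other family genes. Of 15, 13 and 13 apoptosome and caspase genes tested, 1, 1 and 1 rose and 5, 3 and 3 fell at 24 h, with 1, 2 and 1 up and 7, 3 and 4 down at the longer time. CASP9, the initiator caspase of the apoptosome, rose in all lines, by 0.88 ± 0.24, 0.81 ± 0.20 and 0.65 ± 0.10 at 24 h. Its scaffold APAF1 fell at 24 h in all of them, by 0.85 ± 0.15, 0.74 ± 0.11 and 0.55 ± 0.061, and the mitochondrial nuclease gene ENDOG fell by 1.70 ± 0.14, 1.08 ± 0.17 and 1.92 ± 0.18. Of the inhibitors of apoptosis (7, 6 and 7 tested) only BIRC5, survivin, which also serves mitosis, was called at 24 h, and it fell by 3.54 ± 0.31, 2.53 ± 0.15 and 3.85 ± 0.46. Death receptors and their adaptors (6, 6 and 7 tested) had 1, 1 and 1 call upwards and 0, 1 and 0 downwards at 24 h, the rise being TRADD in each line (0.59 ± 0.17, 0.54 ± 0.15 and 0.67 ± 0.13). The 24 h calls of CASP9 and TRADD in SK-N-BE(2)C ended without replicate 3, that of TRADD in IMR-32 without replicate 2, 4 or 5, and that of APAF1 in SH-SY5Y without replicate 1. Regulators of MCL1 turnover (9, 8 and 8 tested) had at most 1 call each way at 24 h, and CDC20, a mitotic gene, fell by 2.46 ± 0.16, 2.35 ± 0.16 and 2.93 ± 0.17.

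Across the 45 libraries, with the mean of each line taken out of log2(CPM + 1), the members that varied most alike were BCL2L11 and PMAIP1 (Pearson r = 0.69) and BCL2L2 and BAD (r = 0.61). The most opposed pairs were BCL2L1 and PMAIP1 (r = -0.67) and BCL2L1 and BCL2L11 (r = -0.53). BCL2 stayed between -0.17 and 0.11 with every other member, but without the 3 libraries of IMR-32 replicate 5 it ranged from -0.45 with MCL1 to 0.42 with BCL2L1 (42 libraries). Libraries of a line share its treatment groups, so these correlations describe the groups as much as the libraries and carry no test. Among 11622 other genes, over all 45 libraries, the closest to PMAIP1 were BARD1 and NUP93 (r = 0.90 for both), to BCL2 UNC5B (0.86, and 0.62 without that replicate) and SHROOM3 (0.84, and 0.60 without it), to BCL2L1 RALGDS (0.93) and TLCD3B (0.92), to MCL1 DNAJB11 and VCP (0.88 for both), and to BCL2L11 YY1 (0.82) and DLG1 (0.81). Without IMR-32 replicate 5 those named for BCL2 came only 651st and 792nd and those for BCL2L1 11th and 22nd.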

How the data were processed

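RNA-seq of 45 libraries (poly(A) selected, directional, paired-end) in 9 groups of 5 was analysed. The authors trimmed reads with Trim Galore 0.6.4, aligned them to hg19 with STAR 2.6.1d and deposited raw counts per gene for each line. The counted strand and the annotation are not given in the sources used here. CPM, the counts divided by each library's total, were deposited by the authors as well and were not needed. The authors' DESeq2 1.32.0 tables of log2 fold changes and adjusted p-values were deposited too and were not used. Replicates were separate platings of different passages, per the study's methods. Groups follow the labels.

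For each line, the deposited counts of its 15 libraries were fitted with edgeR 4.0.16 in R 4.3.3 (TMM scaling, genes kept by filterByExpr with a minimum of 10 counts, 15 in total and a proportion of 0.7, robust quasi-likelihood F test, Benjamini-Hochberg adjustment over the 14055 genes tested for SK-N-BE(2)C, 14293 for IMR-32 or 14547 for SH-SY5Y). A joint fit of all 45 libraries (16282 genes) tested differences between lines. CPM were computed here with TMM factors over all libraries, and RPKM with the union of exons of GENCODE v44 on GRCh37. Standard errors are the log2 change divided by the root of F. The upper limit given for BIK in IMR-32 controls covers counting error only, whereas SEs and SDs also hold the spread between replicates. The fit was tested on simulated data. DESeq2 1.42.0, other scalings, no filter, a replicate block and leaving out replicates were alternatives, and summing replicates 3 to 5 of SK-N-BE(2)C, leaving out 1 replicate number from every group of a line leaving out IMR-32 replicate 5 (also from correlations) and levels per longest transcript were chosen after seeing the data.

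Members and gene lists were chosen with earlier results of these data known. Outside the members, the rule named all other family genes and, of each further list, at most 3 genes with the largest mean change among those called the same way in all 3 lines, and for likeness the 2 genes closest to each member by Pearson correlation. TNFSF10, PRRX1 and SOX10 were not analysed here. A further gene list is not reported here. Replicate numbers paired the samples in 6 of 9 comparisons within lines (lowest correlation of deviations of same-numbered libraries over 0.1), and the lowest was -0.0039.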

Additional observations from a re-analysis of the deposited data

Results flagged for a closer look

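In 11 of 81 sets of 5 libraries, 1 library of a member stood apart from the other 4 (its gap to the nearest exceeded the 95% limit of Dixon's test, which chance passes in about 1 in 20 sets). IMR-32 replicate 5 was high for BCL2 at control (37.6 CPM, others 6.94 to 9.89) and at 24 h (48.9 CPM, others 3.6 to 5.45), and low for BCL2L1 at control (61.4 CPM, others 92 to 101). IMR-32 24 h replicate 2 was high for BAD (57.8 CPM, others 30.9 to 37.2). In SK-N-BE(2)C, 24 h replicate 1 was low for BCL2L1 (53.1 CPM, others 63.3 to 67.1) and BID (85.9 CPM, others 97.4 to 102). BMF there was low in control replicate 2 (3.65 CPM, others 6.15 to 6.59) and high in 7 day replicate 3 (25.4 CPM, others 4.22 to 9.97). In SH-SY5Y, 24 h replicate 4 was low for BCL2 (40.3 CPM, others 51.4 to 54.8), 5 day replicate 3 was high for BCL2L1 (65.4 CPM, others 53.7 to 56.2) and 5 day replicate 4 was low for MCL1 (253 CPM, others 273 to 281). Causes were not tested.

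The response to PB differed between lines in 7 tests of the difference itself (edgeR's quasi-likelihood test in the joint fit). For PMAIP1 the log2 response of SK-N-BE(2)C minus that of IMR-32 was 0.95 (24 h) and 1.01 (longer time), and minus that of SH-SY5Y 0.74 and 0.53. For BAD at 24 h it was -0.56 against IMR-32 and -0.61 against SH-SY5Y. For BCL2L11 the 5 day response of IMR-32 minus that of SH-SY5Y was -0.64.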

How the results depend on the processing

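Of the values of members that were called, 297 of 320 kept direction and call when 1 library or replicate number was left out and 197 of 204 under the other settings, and none of these reversed. With no limit on size, the members called became 4, 6 and 5 for SK-N-BE(2)C (24 h, 7 days, 7 days against 24 h), 4 for IMR-32 at 5 days, 8, 7 and 4 in SH-SY5Y, and at the longer time 3 for SK-N-BE(2)C against IMR-32, 4 for SK-N-BE(2)C against SH-SY5Y and 4 for IMR-32 against SH-SY5Y. Library totals alone gave 1 in SK-N-BE(2)C at 24 h (BCL2) and 1 for SK-N-BE(2)C against IMR-32 at 24 h. Without the count filter there were 0 in SK-N-BE(2)C between the treated times, and 1 at 24 h for SK-N-BE(2)C against each other line. Summing SK-N-BE(2)C replicates 3 to 5 gave 0 between its treated times. For SK-N-BE(2)C against IMR-32 at the longer time RLE factors and DESeq2 gave 2, the replicate block 2, and leaving out IMR-32 replicate 5 gave 3. For IMR-32 against SH-SY5Y that replicate's absence gave 1 at 24 h and 2 at 5 days, and the replicate block gave 1 and 2. The block changed no call of a member within a line (BCL2 in IMR-32 at 24 h, -0.53).

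Leaving out libraries moved the members called from 0 to 1 (SK-N-BE(2)C 24 h), 0 to 2 (its 7 days against 24 h), 3 to 5 (IMR-32 24 h), 1 to 2 (IMR-32 5 days against 24 h) and 0 to 1 (SH-SY5Y 5 days against 24 h). Between lines the ranges were 1 to 3 and 1 to 4 for SK-N-BE(2)C against IMR-32 (24 h, longer), 0 to 2 and 0 to 1 against SH-SY5Y, and 0 to 1 and 1 to 2 for IMR-32 against SH-SY5Y.

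The change in the summed ratio (0.11 and 0.12 for SK-N-BE(2)C, 0.40 and 0.41 for IMR-32, 0.21 and -0.11 for SH-SY5Y) depended on what was summed. From medians of log2 levels it was 0.41 and 0.99, 0.97 and 1.23, 0.67 and 0.60. Without MCL1 it was 0.31 and 0.70, 0.60 and 0.66, and 0.19 in SH-SY5Y at 5 days. With BBC3 and HRK added it was 0.01 and -0.10 for SK-N-BE(2)C, 0.17 for IMR-32 at 5 days, and 0.11 and -0.22 in SH-SY5Y. The longest transcript gave 0.32 in IMR-32 at 5 days, and no division by length gave -0.04 in SH-SY5Y at 5 days.

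Signs turned only for values that were not called. They were BID in SK-N-BE(2)C at 7 days (-0.01 without the filter, -0.08 with replicates summed), BCL2L2 in SH-SY5Y at 24 h (0.01 with factors over 45 libraries) and for SK-N-BE(2)C against IMR-32 (0.02, 0.01 and 0.02 with RLE, no filter and DESeq2), and with library totals the control gaps of BCL2L1 (-0.14) and MCL1 (-0.15) for SK-N-BE(2)C and MCL1 (-0.06) for IMR-32, each against SH-SY5Y, where that scaling shifted the median gene by -0.2 and -0.18. Leaving out libraries gave ranges across 0 for BID (-0.06 to 0.1) and BAD (-0.06 to 0.11) in SK-N-BE(2)C at 7 days, BCL2 (-1.65 to 0.68 and -0.75 to 0.55) and MCL1 at 5 days (-0.05 to 0.01) in IMR-32, and BCL2L2 in SH-SY5Y (-0.08 to 0.01 and -0.01 to 0.03). Between lines these were BCL2 (-0.14 to 0.01) and BMF (-0.6 to 0.52) for SK-N-BE(2)C against SH-SY5Y, BCL2L2 (-0.06 to 0.05) against IMR-32, and BAD at 24 h (-0.26 to 0.04) and BCL2L1 (-0.01 to 0.16) for IMR-32 against SH-SY5Y.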

Other observations

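The members not placed above by likeness had these closest genes over the 45 libraries. BCL2L2 varied most like SLC25A29 (r = 0.82) and DDIT3 (r = 0.80), BID like TMEM230 (0.79) and NAA10 (0.76), BMF like PRKCSH (0.71) and FURIN (0.70), and BAD like GNB2 (0.81) and EMC3 (0.77). DDIT3 encodes CHOP, a factor of the unfolded protein response, and FURIN a protease of the secretory pathway. These are descriptions over libraries that share treatment groups, with no test.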
